A study of Arabidopsis thaliana with 12 samples.

Results

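The genes described here encode calcium sensors and calcium-regulated protein kinases of Arabidopsis. They are the 72 of 22953 genes in the deposited table whose symbol is CML, CPK, CDPK, CIPK or CBL with a number, or is *TCH2* or *TCH3*. The set holds 10 CML genes (*TCH2* and *TCH3* counted among them), 33 CPK genes (with the symbols CPK and CDPK), 21 CIPK genes and 8 CBL genes. Genes of these families that carry another symbol, such as *SOS2* and *SOS3*, were not taken by this rule. Poly(A) RNA from the shoots of Columbia-0 seedlings was sequenced in 4 groups of 3 replicates. WT was the wild type on 1/2 MS media without sucrose, WT-Suc was the wild type with 1% sucrose, *tmt2-S* was the knockout of the vacuolar sugar importer *TMT2* without sucrose, and *tmt2-L-Suc* was the knockout with 1% sucrose. The labels give an age of 7 days for *tmt2-S* and of 5 days for the other groups. In comparisons with *tmt2-S*, its age therefore cannot be told apart from the genotype or from sucrose. In the study's wording, S marks mutant seedlings without true leaves and L those with true leaves, and the mutant is 1 insertion line whose T-DNA lies in the last exon. The study calls the 3 replicates behind its plots of these groups biological. No source used here says whether they came from separate plantings, so p-values measure the spread between these libraries.

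In plant cells, touch, wounding, pathogens, salt, cold and changes in nutrient supply raise cytosolic calcium for seconds to minutes, and proteins with EF-hand motifs bind that calcium. Calmodulin-like proteins (CML) have EF hands and no enzyme domain, and pass the signal on by binding other proteins. Calcium-dependent protein kinases (CPK) carry EF hands and a kinase domain in 1 chain. Calcineurin B-like proteins (CBL) bind calcium and then recruit CBL-interacting protein kinases (CIPK) to a membrane, among them the tonoplast, where *TMT2* also works.

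The 12 libraries held between 20187961 and 21370053 expected counts. Genes of leaf mesophyll were abundant in every library (summed FPKM of 4 genes 46294 to 99788, lowest in *tmt2-S*, with 2 of the 4 lower in *tmt2-S*/WT), and 6 root genes together stayed at or below 8.09 FPKM. Seed storage genes summed to 206 FPKM in WT-Suc replicate 2 and to at most 6.79 in the other 11 libraries, and calls that rest on this library are given without it. The expected count of *TMT2* was 334 to 439 in WT and 337 to 551 in WT-Suc. In *tmt2-S* it was 1001 to 1184, and *tmt2-L-Suc* had 531 to 1182. The count covers the whole gene, and the study detected the transcript upstream of the T-DNA, so this count does not check the knockout. *CPK5* lies head to head with *TMT2* on chromosome 4 of TAIR10.1, with 1781 bases between them. In bulk RNA, fewer cells of a type and less RNA per cell cannot be told apart.

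Of the 72 members, 56 had enough counts to be tested among 18506 genes (9 CML, 24 CPK, 17 CIPK and 6 CBL). The other 16 had at most 8 counts in any library and were *CML43*, *CBL5*, *CBL8*, *CIPK13*, *CIPK18*, *CIPK19*, *CIPK22*, *CPK14*, *CPK16*, *CPK17*, *CPK18*, *CPK19*, *CPK22*, *CPK24*, *CPK25* and *CPK34*. *CML41* was the 1 tested member that reached 10 counts in the libraries of a single group, *tmt2-S*. It passed the filter through the group where it is high, so its calls carry no weight of their own. Counts of members higher or lower that hold it are given with and without it at first mention. *CIPK25* reached 10 counts only in libraries of WT and WT-Suc, and *CBL6* in libraries of every group but *tmt2-S*. Both passed the filter through groups where they are high, so their calls in *tmt2-S*/WT carry no weight of their own either. The other 53 tested members reached 10 counts in at least 1 library of each group. A member is called higher or lower at an adjusted p of at most 0.05 by the quasi-likelihood test of edgeR, with adjustment after Benjamini and Hochberg over every gene tested. A call that also has a log2 fold change (log2FC) of at least 1.2 in size is a DEG, which follows the study's criteria.

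In *tmt2-S* against WT, 24 of the 56 tested members (42.9%) were higher and 9 (16.1%) were lower, where 20.7% and 22.6% of all genes tested were higher and lower. The DEG criteria took 6 members higher and 6 lower, against 7.79% and 12% of all genes. Without *CML41*, 23 of 55 were higher (41.8%), 5 of them by the DEG criteria, and the median log2FC was 0.41. By family, 5 CML genes were higher (4 without *CML41*), and 11 CPK genes were higher and 2 lower. Among the CIPK genes 8 were higher and 3 lower, and 4 CBL genes were lower. The counts of lower members and of lower DEGs hold *CIPK25* and *CBL6*, whose calls here carry no weight of their own. The median log2FC of the tested members was 0.42, and that of all genes was -0.01. Of the 33 calls, 26 held without each library in turn and under every other setting but the stricter DEG criteria, and those of *CBL6*, *CIPK1*, *CIPK12*, *CML38*, *CPK6*, *CPK7* and *CPK31* did not.

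The comparison of *tmt2-S* against *tmt2-L-Suc* sets the mutant without sucrose, at 7 days of age, against the mutant with it, at 5 days. In *tmt2-S*, 24 members were higher and 7 were lower (25.7% and 25.8% of all genes). As DEGs, 11 were higher and 3 lower, against 10.6% and 12.4% of all genes. Without *CML41*, 23 of 55 were higher, 10 of them as DEGs. All 11 CIPK genes that were called were higher, as were the 4 CML genes called (3 without *CML41*), and the 3 CBL genes called were lower. The calls of *CDPK1* (0.43) and *CPK7* (0.43) were lost without *tmt2-S* replicate 2 and that of *CDPK9* (-0.46) without *tmt2-L-Suc* replicate 2. Those of *CDPK6* (0.29 to 0.32) and *CIPK8* (0.34 to 0.41) were lost without *tmt2-S* replicate 2, *tmt2-L-Suc* replicate 3 and 1 or 2 further libraries. This comparison and the one before it share the *tmt2-S* libraries. The median log2FC of the members was 0.33 (0.31 without *CML41*), against -0.01 for all genes.

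Few genes of any kind were called for sucrose in the wild type. In WT-Suc against WT, 0 members were higher and 3 of the 56 (5.36%) were lower, *CML37*, *CIPK9* and *CPK32*. Of all genes, 0.222% were higher and 1.25% lower (DEG 0.0811% and 0.902%). By DESeq2, 0 members were higher and 6 lower, where 1161 of all genes were called in either direction. At an unadjusted edgeR p of at most 0.05, 0 members were higher and 13 lower. The share of all genes at that threshold was not computed. The 3 calls depended on which libraries were kept. Without WT replicate 1, WT replicate 2 or WT-Suc replicate 2 (the library with seed RNA), 0 members were lower, and 1 without WT-Suc replicate 3. Without WT replicate 3 or without WT-Suc replicate 1, 5 were lower. With all libraries, 41 of all genes were higher and 231 lower. Without WT replicate 1, WT replicate 2, WT-Suc replicate 2 or WT-Suc replicate 3, the calls over all genes numbered 7, 29, 0 and 21. They numbered 485 without WT replicate 3 and 1445 without WT-Suc replicate 1.

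In *tmt2-L-Suc* against WT-Suc, where age and sucrose were the same, 18 members were higher and 8 lower (10% and 10.4% of all genes, DEG 4.29% and 2.91%). By family, 7 CML genes were higher, 8 CPK genes were higher and 1 lower, 2 CIPK genes were higher and 7 lower, and 1 CBL gene was higher. The calls of 10 members held without each library and under every setting but the DEG criteria: *CML37*, *CML11*, *TCH2*, *CPK28*, *CPK4*, *CPK32*, *CPK6* and *CIPK9* were higher, and *CIPK12* and *CIPK21* were lower. Without WT-Suc replicate 2 the counts were 8 higher and 4 lower, without WT-Suc replicate 3 they were 9 and 5, and without *tmt2-L-Suc* replicate 1 they were 10 and 4. Without *tmt2-L-Suc* replicate 3, 3 members were lower. Calls over all genes fell as well. With all libraries, 1859 of all genes were higher and 1931 lower. In either direction, 1532 were called without WT-Suc replicate 2 and 2003 without WT-Suc replicate 3. Without *tmt2-L-Suc* replicate 1 or 3, the calls over all genes numbered 2485 and 1712.

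**Figure D1:**
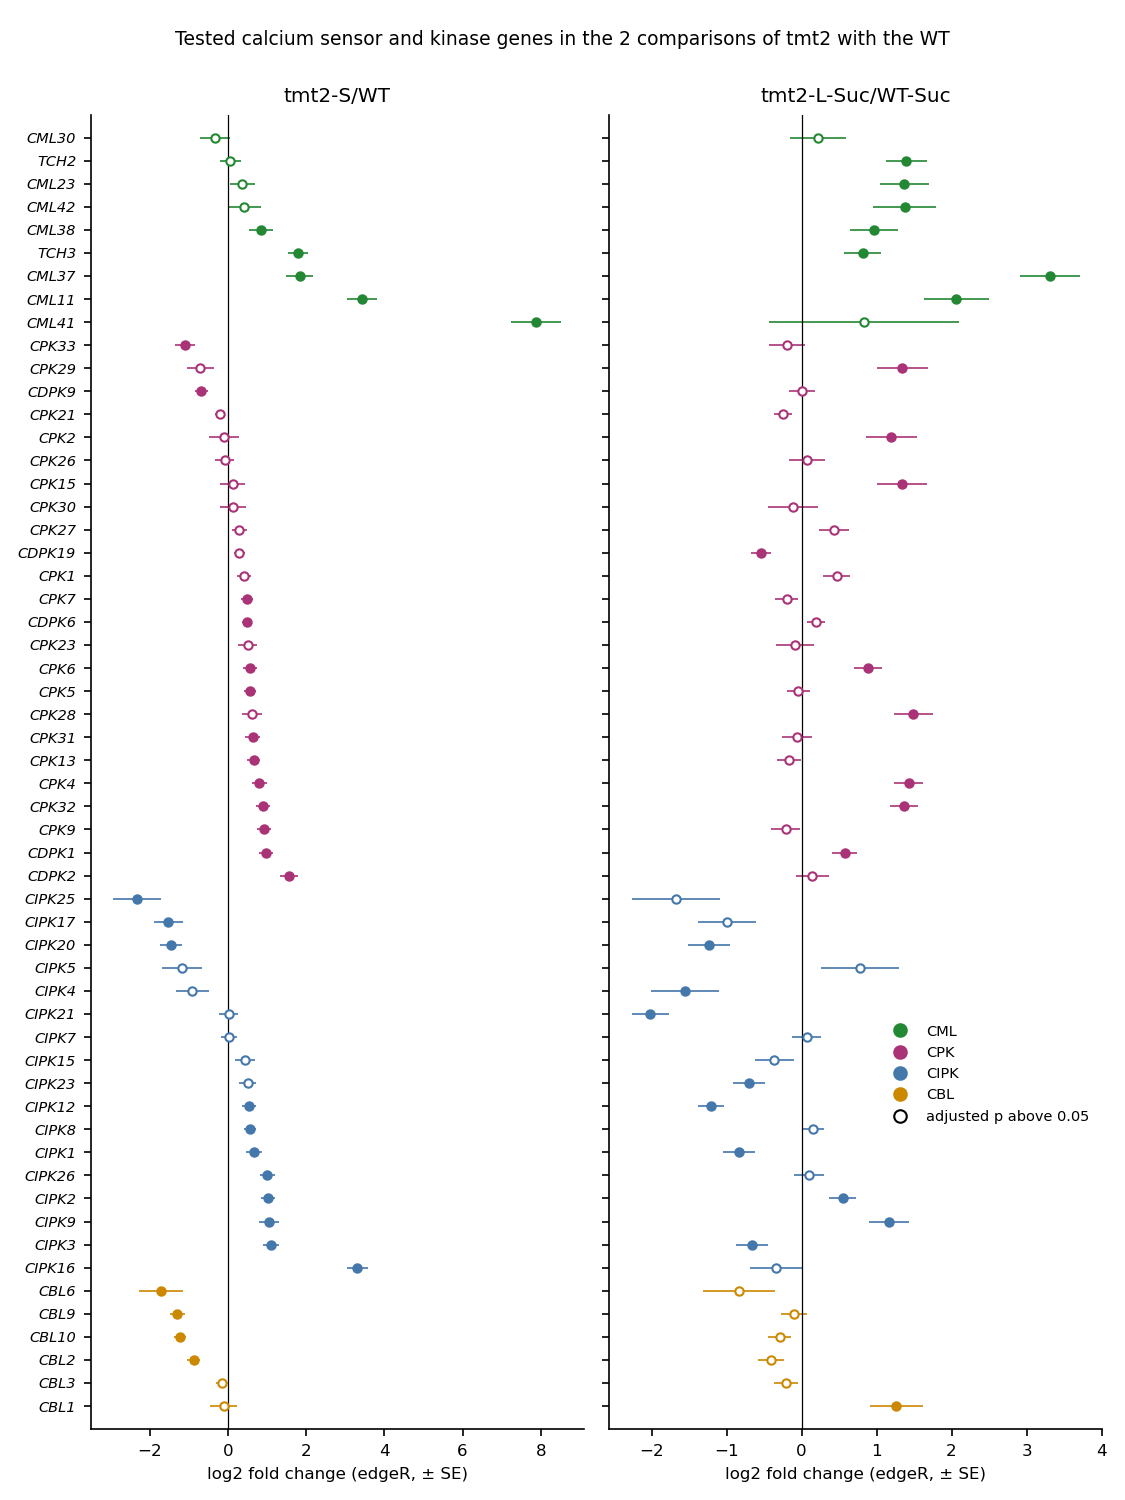
Log2FC with its standard error (edgeR, n = 3 libraries per group) of the 56 tested members in *tmt2-S*/WT (left) and *tmt2-L-Suc*/WT-Suc (right), by family, with filled points where the adjusted p was at most 0.05. In *tmt2-S*/WT the 4 called CBL genes lie left of 0, and most CIPK and CPK calls lie right of it. In *tmt2-L-Suc*/WT-Suc 7 of the 9 called CIPK genes lie left of 0.

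These 2 comparisons of the mutant with the wild type share no library. Their log2FC values were related across the 56 members with a Pearson's r of 0.38 (Spearman's rho 0.37), and across all 18506 genes with 0.25 (rho 0.09). Genes are not independent replicates, so these values are a description. The member values and the sign counts below hold *CML41*, which has the largest log2FC of the members in *tmt2-S*/WT (7.88). They were not computed without it, and Pearson's r is sensitive to such a value. The sign was the same for 34 of 56 members and for 9399 of all 18506 genes. Among the members it was the same for 8 of 9 CML genes, 12 of 24 CPK, 9 of 17 CIPK and 5 of 6 CBL.

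Of the 9 tested calmodulin-like genes, 5 (*CML41* among them) were higher in *tmt2* without sucrose and 7 with it, and 4 (*CML11*, *CML37*, *CML38* and *TCH3*) were in both counts. *TCH3*, a touch-induced sensor with several EF hands, had the highest FPKM of the set. Its FPKM was 293, 421 and 392 in WT and 279, 305 and 296 in WT-Suc. The *tmt2-S* libraries had 827, 1518 and 1567, and those of *tmt2-L-Suc* had 712, 442 and 419. The 3 values of *tmt2-S* lay above those of every other group, and replicate 1 was the lowest of them. The log2FC was 1.79 (SE 0.26, adjusted p = 0.000166) in *tmt2-S*/WT and 0.81 (SE 0.25, adjusted p = 0.038) in *tmt2-L-Suc*/WT-Suc. The second call was lost without any 1 of 5 libraries (all but *tmt2-L-Suc* replicate 3), with a log2FC of 0.58 to 0.88 and an adjusted p of 0.0563 to 0.15.

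*CML41*, whose product acts at plasmodesmata in the response to bacterial flagellin, was almost absent outside *tmt2-S*. Its expected counts were 0, 2 and 2 in WT and 2, 0 and 1 in WT-Suc. They were 1, 1 and 4 in *tmt2-L-Suc*, whereas *tmt2-S* had 152, 492 and 414. Summed over libraries and scaled to their totals, *tmt2-S* had 263 times the counts of WT (exact 95% interval 102 to 967, which covers counting error only). The fitted log2FC of 7.88 depends on the prior count at such levels and is given as a description, with no test. In FPKM, *tmt2-S* replicate 1 was at 11.4 and the other replicates were at 37.7 and 30.4.

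*CML11* had an FPKM of 1.21, 0.95 and 0.94 in WT and 0.94, 0.56 and 0.40 in WT-Suc. It was 5.32, 17.3 and 11.9 in *tmt2-S*, against 2.92, 2.27 and 2.99 in *tmt2-L-Suc*. The *tmt2* groups did not overlap with the wild type on either medium. The log2FC was 3.42 (SE 0.39, adjusted p = 2.99e-05) in *tmt2-S*/WT and 2.06 (SE 0.43, adjusted p = 0.00649) in *tmt2-L-Suc*/WT-Suc.

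*CML37*, a positive regulator of the defence against herbivores, had an FPKM of 3.76, 4.52 and 3.26 in WT and 0.71, 0.36 and 1.51 in WT-Suc. It was at 11.6, 18.55 and 12.4 in *tmt2-S* and at 11.8, 5.82 and 9.09 in *tmt2-L-Suc*. The 4 groups were thus in the order WT-Suc, WT, *tmt2-L-Suc*, *tmt2-S*, and the last 2 overlapped. The log2FC was -2.23 (SE 0.40, adjusted p = 0.0261) in WT-Suc/WT, 1.83 (SE 0.34, adjusted p = 0.001) in *tmt2-S*/WT and 3.31 (SE 0.40, adjusted p = 0.000456) in *tmt2-L-Suc*/WT-Suc. The call in WT-Suc/WT was lost without WT replicate 1, WT replicate 2 or WT-Suc replicate 2, where the log2FC was -2.22 to -1.88 and the adjusted p 0.0775 to 0.13.

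*TCH2* and *CML23*, close relatives known from touch and from the control of flowering time, were called higher in *tmt2-L-Suc*/WT-Suc and not in *tmt2-S*/WT. The FPKM of *TCH2* was 286, 190.4 and 195 in WT and 167, 68.4 and 90.1 in WT-Suc. Of the mutant groups, *tmt2-S* had 208, 277 and 238 and *tmt2-L-Suc* had 289, 314 and 253. The lowest values were those of WT-Suc, which did not overlap with any other group. The log2FC of *TCH2* was 1.40 (SE 0.27, adjusted p = 0.00484) in *tmt2-L-Suc*/WT-Suc, 0.06 (adjusted p = 0.887) in *tmt2-S*/WT and -1.15 (adjusted p = 0.0585) in WT-Suc/WT. The interaction term, the response to sucrose of *tmt2* less that of the wild type, was 1.34 (SE 0.38, adjusted p = 0.0169). *TCH2* overlaps AT5G37760 on the other strand, and whether reads were counted by strand is not given in the sources used here. *CML23* was at 8.52, 4.49 and 4.40 FPKM in WT-Suc and at 15.6, 16.3 and 13.4 in *tmt2-L-Suc* (log2FC 1.37, SE 0.33, adjusted p = 0.0126), with WT at 10.8, 4.22 and 8.90 and *tmt2-S* at 7.56, 13.0 and 11.1 (interaction 1.01, adjusted p = 0.103). Its call was lost without WT-Suc replicate 2 or 3 (log2FC 1.23 and 1.24, adjusted p 0.0563 and 0.0646).

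*CML38*, which is induced by low oxygen, was at 66.7 to 76.4 FPKM in WT and 23.5 to 46.2 in WT-Suc. In *tmt2-S* it was 109 to 169, and *tmt2-L-Suc* had 40.5 to 97.5. Its log2FC was 0.84 (SE 0.31, adjusted p = 0.0452) in *tmt2-S*/WT and 0.97 (SE 0.32, adjusted p = 0.0489) in *tmt2-L-Suc*/WT-Suc. The first call was kept only without *tmt2-S* replicate 1 and the second was lost without WT-Suc replicate 2 or 3 or *tmt2-L-Suc* replicate 1, with a log2FC of 0.65 to 0.93 and 0.47 to 0.83 where they were lost. *CML42*, known as a negative regulator of the herbivore response, had a log2FC of 1.37 (SE 0.42, adjusted p = 0.0365) in *tmt2-L-Suc*/WT-Suc, which was kept only without WT-Suc replicate 1 among the 6 libraries (1.21 to 1.42 and adjusted p 0.064 to 0.139 without the others). *CML30* ranged from 3.93 to 13.9 FPKM over the 12 libraries and was called in none of the comparisons, interaction included.

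**Figure D2:**
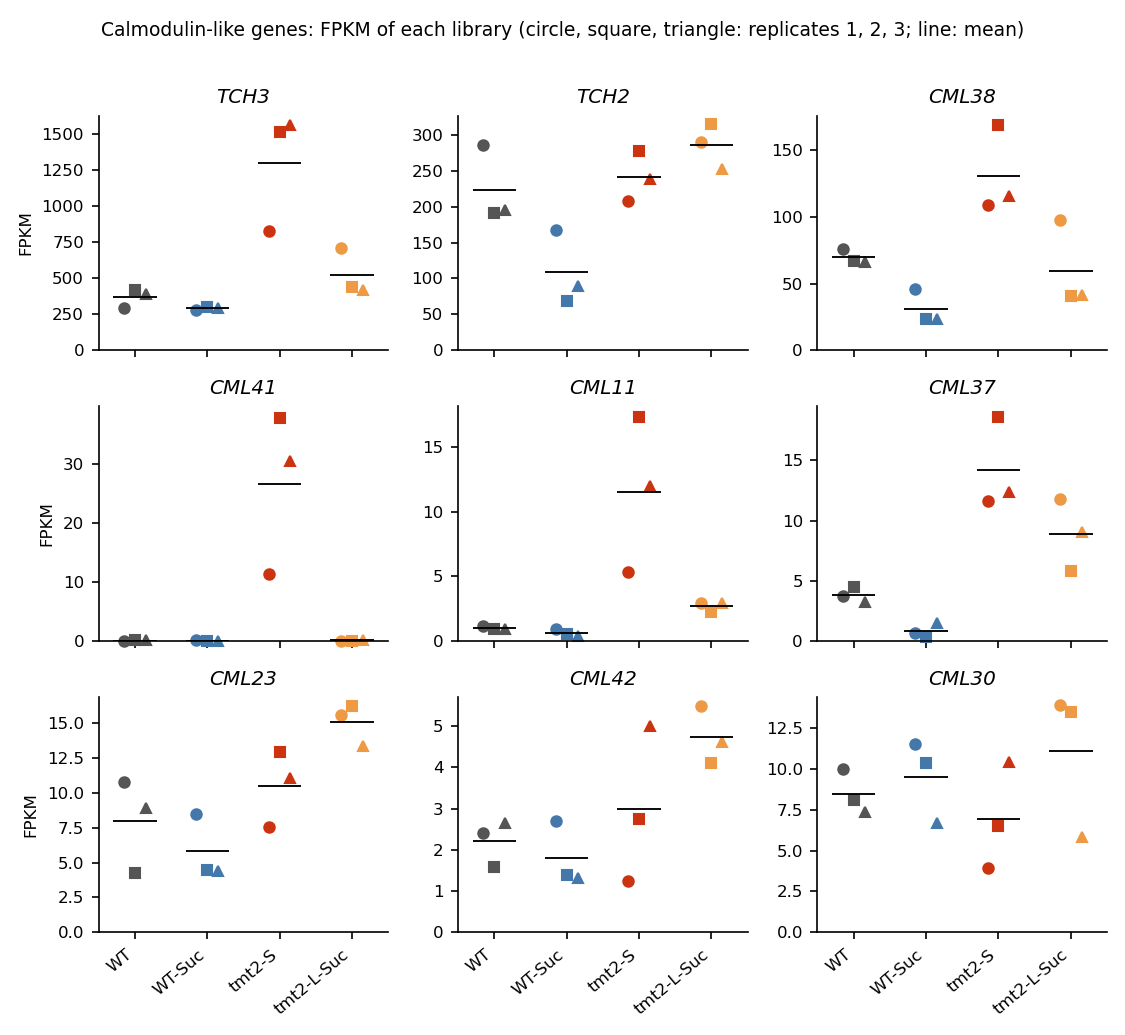
FPKM (vertical axis, from 0) of the 9 tested calmodulin-like genes in each of the 12 libraries, by group, with a line at the group mean. *TCH3*, *CML41* and *CML11* have their 3 highest values in *tmt2-S*, and replicate 1 of *tmt2-S* is the lowest of its group in all 3. *TCH2* is lowest in WT-Suc.

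A list of 14 genes known to respond to touch or wounding within minutes to an hour was set beside the CML genes. Examples are *WRKY40*, *ZAT10*, *LOX4*, *TCH4*, *CBF1* and *CBF3*. Of these 14 genes, 9 were higher and 2 lower in *tmt2-S*/WT, 6 and 1 in *tmt2-S*/*tmt2-L-Suc*, and 5 and 1 in the interaction. In WT-Suc/WT 8 were lower, and in *tmt2-L-Suc*/WT-Suc 10 were higher. Of all genes, 20.7% were higher and 22.6% lower in *tmt2-S*/WT, 1.25% were lower in WT-Suc/WT and 10% were higher in *tmt2-L-Suc*/WT-Suc. In *tmt2-S*/*tmt2-L-Suc* 25.7% of all genes were higher and 25.8% lower, and in the interaction 18.1% were above 0 and 16.6% below. *CBF1* was at 11.6, 4.49 and 4.69 FPKM in WT and at 2.66, 3.22 and 1.57 in *tmt2-S*. *CBF3* was at 1.39, 0.70 and 0.22 in WT and at 0.04, 0.13 and 0.17 in *tmt2-S*. The FPKM summed over the list was 712 to 813 in WT and 288 to 528 in WT-Suc. The *tmt2-S* libraries had 1625 to 2368, and those of *tmt2-L-Suc* had 829 to 1303. The FPKM summed over the CML genes was 677 to 699, 415 to 516, 1185 to 2060 and 749 to 1149 in the same order. *TCH3* and *TCH2* gave most of the CML sum, with a mean FPKM of 369 and 224 in WT and of 1304 and 241 in *tmt2-S*. The means of *TCH2*, *CML23*, *CML30* and *CML42* were highest in *tmt2-L-Suc*. In both sums, *tmt2-S* replicate 1 was the lowest of its group, and WT-Suc replicate 1 and *tmt2-L-Suc* replicate 1 were the highest of theirs. In WT the sums differed in their order. The list had 813, 712 and 759 in WT replicates 1, 2 and 3, and the CML genes had 684, 699 and 677. The part of touch, handling or wounding at harvest in the CML results was not tested.

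**Figure D3:**
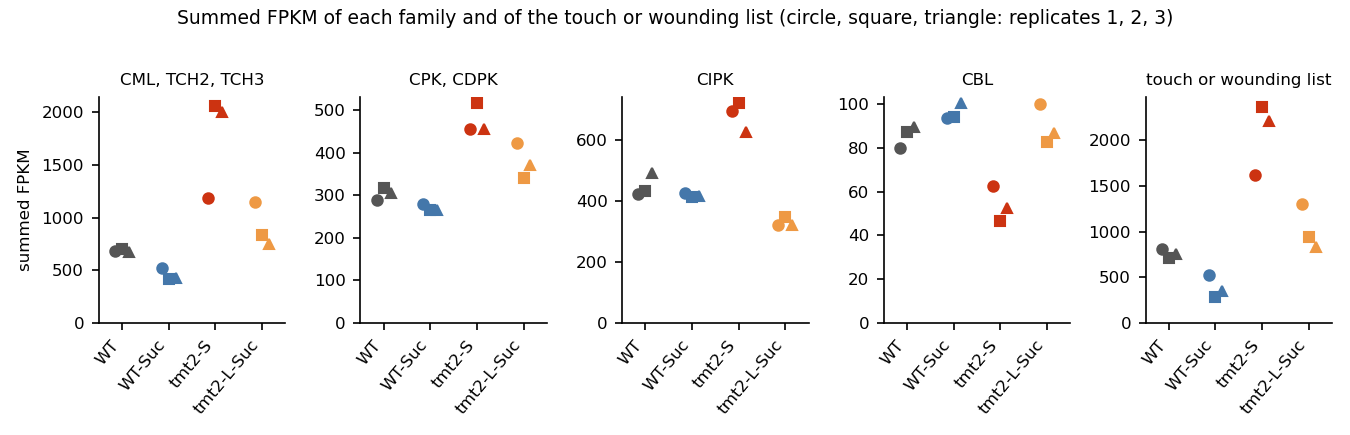
FPKM summed over the members of each family and over the 14 genes of the touch or wounding list (vertical axes, from 0), for each of the 12 libraries by group. The CML sum, most of which comes from *TCH3* and *TCH2*, and the list have the same order of groups, from WT-Suc (lowest) to *tmt2-S* (highest). The CBL sum is lowest in *tmt2-S*, at 46.5 to 62.5.

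Promoters were searched with a view to the members called higher in *tmt2-L-Suc*/WT-Suc, most of them CML and CPK genes, with 2 CIPK genes and 1 CBL gene. They were picked by that call, so their shared direction there is no result. The window ran from 250 bases before to 50 bases after the annotated gene start, read from TAIR10.1, and 4 short motifs were searched on both strands without counting how often each occurred. CGCGT is the core of the CGCG box bound by CAMTA proteins, which are calmodulin-binding transcription activators. It was in 6 of the 18 windows of members that were higher in *tmt2-L-Suc*/WT-Suc (33.3%), in 0 of the 8 that were lower, in 3 of the 24 that were higher in *tmt2-S*/WT (12.5%) and in 2 of the 9 that were lower there (22.2%). It was in 9 of the 56 windows of all tested members (16.1%) and in 9.36% of the 22952 windows of the table. The window of *CML41*, counted among the 24, held 0 matches. TTGAC, the core of the W-box bound by WRKY factors, was in 50% of the 18 windows and in 50.9% of all. CACGTG, the G-box, was in 0% and 8.58%, and TATCCA, an element known from sugar-starved cells, in 16.7% and 16.4%. These shares are descriptions, and a match is not shown to be a binding site.

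The stretches around the CGCGT matches of these 6 members are shown 5′ to 3′ on the gene's strand, since *TCH2* and *CML23* share their arrangement. Capitals mark CGCGT or, on the other strand, ACGCG, and both overlap where ACGCGT is printed. In *CIPK9* and *CPK6* the match lies after the gene start, and in the other 4 before it.
*TCH2* (chr5:14999648-14999732, minus strand): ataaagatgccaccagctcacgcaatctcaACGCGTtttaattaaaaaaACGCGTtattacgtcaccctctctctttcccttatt
*CML23* (chr1:24771400-24771479, minus strand): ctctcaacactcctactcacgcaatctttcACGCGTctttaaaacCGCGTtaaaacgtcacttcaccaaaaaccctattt
*CPK29* (chr1:28537343-28537408, plus strand): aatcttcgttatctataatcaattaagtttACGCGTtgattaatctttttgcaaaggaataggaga
*CIPK2* (chr5:2198590-2198654, minus strand): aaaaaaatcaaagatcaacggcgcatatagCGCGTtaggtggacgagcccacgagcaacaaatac
*CIPK9* (chr1:67725-67771, minus strand): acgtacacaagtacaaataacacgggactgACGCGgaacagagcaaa
*CPK6* (chr2:7516329-7516379, plus strand): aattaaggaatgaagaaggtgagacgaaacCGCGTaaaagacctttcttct

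*TCH2* and *CML23* each held 2 separate stretches in capitals, 83 and 64 bases before the start in *TCH2* and 56 and 41 bases in *CML23*, and the other 4 members held 1 each.

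Of the calcium-dependent protein kinases, 11 were higher in *tmt2-S*/WT and 8 in *tmt2-L-Suc*/WT-Suc, and 4 (*CDPK1*, *CPK4*, *CPK6* and *CPK32*) were in both counts. *CDPK2* (also named *CPK11*), a kinase of abscisic acid signalling, had the largest rise in *tmt2-S*/WT. Its FPKM was 11.3, 9.84 and 13.0 in WT and 11.8, 10.5 and 6.33 in WT-Suc. It was 30.6, 39.1 and 33.4 in *tmt2-S*, against 9.0, 13.1 and 9.70 in *tmt2-L-Suc*. The values of *tmt2-S* stood alone and the other 3 groups overlapped. The log2FC was 1.56 (SE 0.22, adjusted p = 0.00016) in *tmt2-S*/WT and 1.75 (SE 0.23, adjusted p = 5.07e-05) in *tmt2-S*/*tmt2-L-Suc*, and in *tmt2-L-Suc*/WT-Suc it was 0.14 (adjusted p = 0.682).

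*CPK9* and *CPK13*, which is known to act on guard cell potassium channels, had the same kind of profile. *CPK9* was at 11.5, 16.2 and 17.9 FPKM in *tmt2-S* and at 6.37 to 10.05 in the other 9 libraries (log2FC 0.92 in *tmt2-S*/WT and 1.16 in *tmt2-S*/*tmt2-L-Suc*). *CPK13* was at 25.3, 36.6 and 33.45 FPKM in *tmt2-S* and at 14.9 to 22.3 in the others (0.65 and 1.06). *CDPK1* (also named *CPK10*) and *CPK32*, both known from nitrate signalling, were higher in the mutant on both media. The log2FC of *CDPK1* was 0.97 (adjusted p = 0.000643) in *tmt2-S*/WT and 0.57 (adjusted p = 0.0317) in *tmt2-L-Suc*/WT-Suc, the second of which was lost without WT-Suc replicate 2 or 3 or *tmt2-L-Suc* replicate 1 or 3 (0.49 to 0.60, adjusted p 0.0805 to 0.12).

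*CPK32* had the highest mean FPKM of the family. It was at 56.5, 53.2 and 39.98 FPKM in WT and 24.4, 21.01 and 28.0 in WT-Suc. Of the mutant groups, *tmt2-S* had 102, 104 and 82.4 and *tmt2-L-Suc* had 73.8, 59.5 and 60.6. No pair of groups overlapped. The log2FC was 0.90 (SE 0.18, adjusted p = 0.00168) in *tmt2-S*/WT, 1.37 (SE 0.18, adjusted p = 0.000845) in *tmt2-L-Suc*/WT-Suc and -1.12 (SE 0.18, adjusted p = 0.0187) in WT-Suc/WT. The last call was lost without WT replicate 1 or 2 or WT-Suc replicate 2 or 3, with a log2FC of -1.25 to -0.98 and an adjusted p of 0.0509 to 0.13.

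*CPK4*, a close relative of *CDPK2* in abscisic acid signalling, was at 8.45 to 12.9 FPKM in WT and 7.41 to 9.81 in WT-Suc. In *tmt2-S* it was 18.8 to 20.96, and *tmt2-L-Suc* had 16.8 to 26.1. Its log2FC was 0.79 (SE 0.19, adjusted p = 0.00457) in *tmt2-S*/WT and 1.43 (SE 0.19, adjusted p = 0.000836) in *tmt2-L-Suc*/WT-Suc. *CPK28*, which limits immune signalling by promoting the turnover of the kinase BIK1, was at 17.7, 18.9 and 27.5 FPKM in WT-Suc and at 82.1, 43.0 and 60.55 in *tmt2-L-Suc* (log2FC 1.49, SE 0.26, adjusted p = 0.00269). In *tmt2-S*/WT its log2FC was 0.62 (adjusted p = 0.0649). *CPK6*, an immune and guard cell kinase, rose by 0.89 (SE 0.18, adjusted p = 0.00644) in *tmt2-L-Suc*/WT-Suc and by 0.56 (adjusted p = 0.0258) in *tmt2-S*/WT, and the latter was lost without WT replicate 1 or 2 or *tmt2-S* replicate 2 or 3 (0.45 to 0.59, adjusted p 0.0544 to 0.0943).

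*CPK29* was highest in *tmt2-L-Suc*. It was at 2.95, 3.82 and 2.17 FPKM in WT and 2.23, 2.39 and 2.56 in WT-Suc. The *tmt2-S* libraries had 3.23, 1.28 and 0.88, and those of *tmt2-L-Suc* had 6.80, 4.73 and 5.72. The values of *tmt2-L-Suc* did not overlap with those of any other group. The log2FC was 1.35 (SE 0.34, adjusted p = 0.0168) in *tmt2-L-Suc*/WT-Suc, which was lost without WT-Suc replicate 2 or 3 or *tmt2-L-Suc* replicate 1 (1.2 to 1.37, adjusted p 0.0526 to 0.0718), and -1.61 (SE 0.35, adjusted p = 0.00193) in *tmt2-S*/*tmt2-L-Suc*. *CPK2* was low, at 0.12 to 0.53 FPKM in the other groups and at 0.85, 0.71 and 0.98 in *tmt2-L-Suc* (log2FC in *tmt2-S*/*tmt2-L-Suc* -1.84, SE 0.36, adjusted p = 0.00103). *CPK15* had a log2FC of 1.34 (adjusted p = 0.0156) in *tmt2-L-Suc*/WT-Suc, and *CPK2* had 1.2 (adjusted p = 0.0281). The call of *CPK15* was lost without WT-Suc replicate 2 or *tmt2-L-Suc* replicate 3 (1.17 and 1.21), and that of *CPK2* without WT-Suc replicate 2 or 3 or *tmt2-L-Suc* replicate 1 or 3 (1.02 to 1.22).

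The CPK genes that fell in *tmt2-S*/WT were *CPK33*, by 1.09 (adjusted p = 0.00427), and *CDPK9*, by 0.68 (adjusted p = 0.00712). *CPK5*, an immune kinase that phosphorylates the NADPH oxidase *RBOHD*, and *CDPK6* (also named *CPK3*) rose by 0.57 and 0.48 there (adjusted p = 0.00932 and 0.00589). *CPK7* and *CPK31* rose by 0.48 and 0.63, and these calls were lost without WT replicate 1 or *tmt2-S* replicate 2 for *CPK7* (0.33 and 0.40) and without WT replicate 3 or *tmt2-S* replicate 2 for *CPK31* (0.52 and 0.57). *CDPK19* fell by 0.55 (adjusted p = 0.0133) in *tmt2-L-Suc*/WT-Suc, a call that was lost without WT-Suc replicate 2 or *tmt2-L-Suc* replicate 1 (-0.48 and -0.50). *CPK31*, *CPK27*, *CPK22* and *CPK21* follow each other on chromosome 4 within 2201 bases of the next, and reads shared among such relatives make their levels uncertain. *CPK2*, *CPK4*, *CPK28*, *CPK33*, *CDPK1*, *CDPK6*, *CDPK9* and *CDPK19* overlap a neighbouring gene, whose reads may be counted with theirs. *CPK1*, *CPK21*, *CPK23*, *CPK26*, *CPK27* and *CPK30* were called in none of the comparisons.

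**Figure D4:**
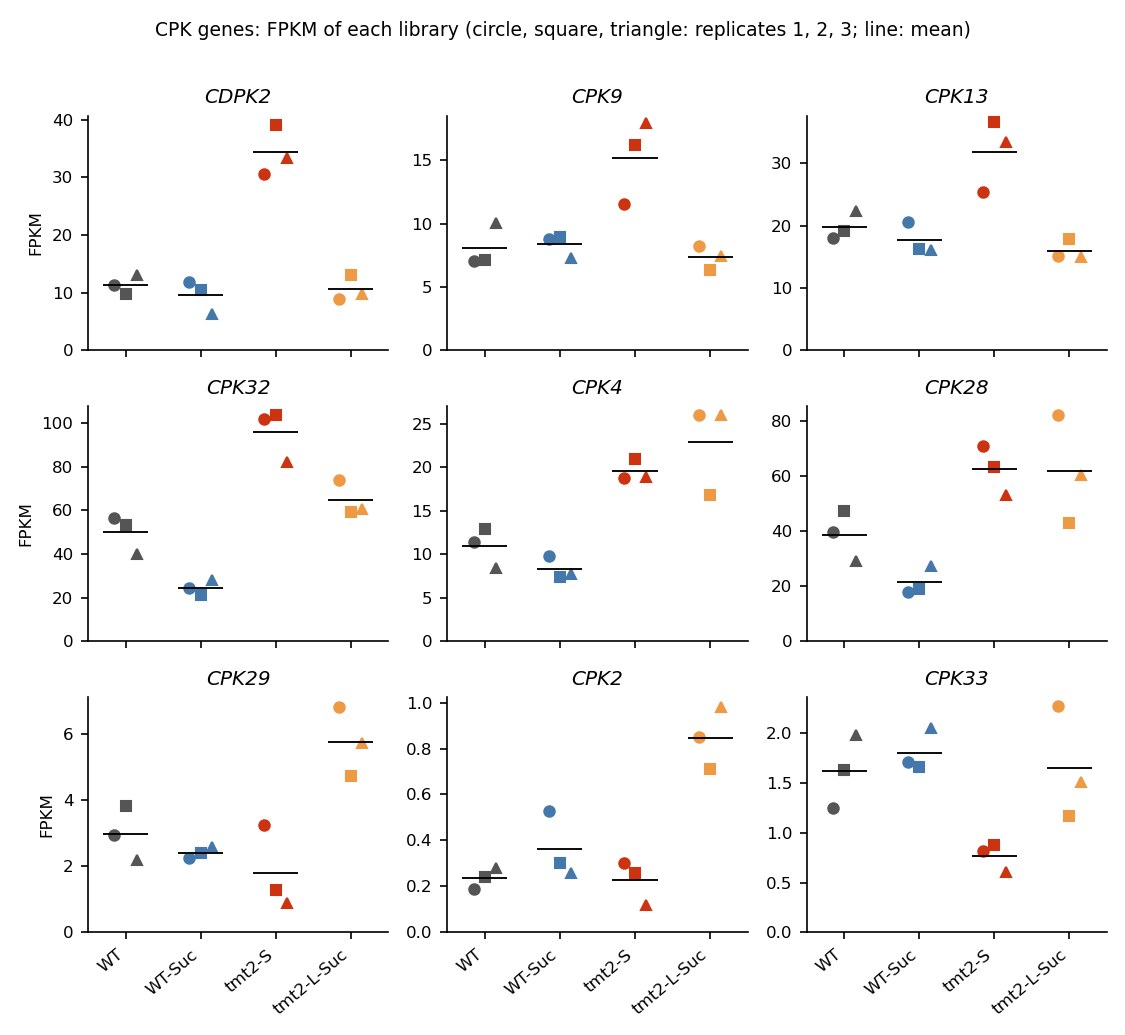
FPKM (vertical axis, from 0) of 9 CPK genes in each of the 12 libraries, by group, with a line at the group mean. *CDPK2*, *CPK9* and *CPK13* have their 3 highest values in *tmt2-S*. *CPK29* and *CPK2* have theirs in *tmt2-L-Suc*, and *CPK32* separates all 4 groups.

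Of the 6 tested CBL sensors, 4 (*CBL6* among them) were lower in *tmt2-S*/WT. *CBL10*, which protects shoots from salt at the tonoplast together with *SOS2*, had the highest FPKM of the family. Its FPKM was 35.1, 36.9 and 42.2 in WT and 42.7, 45.0 and 44.4 in WT-Suc. It was 20.35, 13.9 and 16.2 in *tmt2-S*, against 41.8, 35.6 and 32.6 in *tmt2-L-Suc*. All values of *tmt2-S* lay below all values of the other groups. The log2FC was -1.23 (SE 0.15, adjusted p = 5.64e-05) in *tmt2-S*/WT, -1.07 (SE 0.15, adjusted p = 0.00011) in *tmt2-S*/*tmt2-L-Suc* and -0.29 (adjusted p = 0.18) in *tmt2-L-Suc*/WT-Suc. *CBL10* overlaps AT4G33010 on the other strand.

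*CBL9*, a plasma membrane sensor of potassium and abscisic acid signalling, was at 7.40, 7.57 and 7.93 FPKM in WT and 8.07, 8.17 and 9.92 in WT-Suc. Of the mutant groups, *tmt2-S* had 3.94, 2.77 and 2.84 and *tmt2-L-Suc* had 9.76, 7.76 and 7.52. The log2FC was -1.30 (SE 0.19, adjusted p = 0.000163) in *tmt2-S*/WT and -1.32 (SE 0.19, adjusted p = 0.000103) in *tmt2-S*/*tmt2-L-Suc*. *CBL2*, a tonoplast sensor, was at 6.27, 6.74 and 5.49 FPKM in WT and at 3.66, 3.65 and 2.99 in *tmt2-S* (log2FC -0.89, SE 0.18, adjusted p = 0.0016). It was at 10.07, 6.49 and 7.90 in WT-Suc and at 6.59, 6.23 and 5.86 in *tmt2-L-Suc*.

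*CBL3*, the tonoplast sensor most similar to *CBL2*, ranged from 18.1 to 30.9 FPKM and was called in none of the comparisons. *CBL1*, the close relative of *CBL9*, was called higher in *tmt2-L-Suc*/WT-Suc, at 14.7, 7.69 and 14.4 against 4.57, 4.78 and 5.53 FPKM (log2FC 1.27, SE 0.35, adjusted p = 0.0243). It overlaps AT4G17616 on the same strand, whose reads may be counted with its own. That call was lost without WT-Suc replicate 2 or 3 or *tmt2-L-Suc* replicate 1 or 3 (1.11 to 1.36, adjusted p 0.058 to 0.0942). *CBL6* had 10 counts in the 3 *tmt2-S* libraries and 33 in those of WT, 3.32 times as many after scaling to the totals (exact 95% interval 1.60 to 7.55). Its call in *tmt2-S*/WT (log2FC -1.72, adjusted p = 0.0271) was lost without any 1 library other than WT replicate 1 (-1.87 to -1.55, adjusted p 0.0532 to 0.0824).

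Of the CIPK genes, 8 were higher in *tmt2-S*/WT, and 7 were lower in *tmt2-L-Suc*/WT-Suc. *CIPK16*, a kinase linked to salt tolerance, had the largest rise. Its FPKM was 0.84, 0.69 and 1.05 in WT and 0.31, 0.48 and 0.54 in WT-Suc. In *tmt2-S* it was 7.72, 10.06 and 8.48, and *tmt2-L-Suc* had 0.24, 0.51 and 0.30. The lowest value of *tmt2-S* was thus above 7 FPKM and the highest value elsewhere was 1.05. The log2FC was 3.31 (SE 0.27, adjusted p = 3.35e-06) in *tmt2-S*/WT, 4.67 (SE 0.30, adjusted p = 6.3e-07) in *tmt2-S*/*tmt2-L-Suc* and -0.34 (adjusted p = 0.511) in *tmt2-L-Suc*/WT-Suc.

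*CIPK1*, *CIPK3* and *CIPK12* were higher in *tmt2-S*/WT and lower in *tmt2-L-Suc*/WT-Suc. *CIPK3*, known from abscisic acid and cold signalling, was at 35.0, 55.6 and 82.8 FPKM in WT and 57.25, 59.3 and 61.4 in WT-Suc. The *tmt2-S* libraries had 137, 119.7 and 113, and those of *tmt2-L-Suc* had 40.2, 36.4 and 39.2. Its log2FC was 1.1 (SE 0.21, adjusted p = 0.00133) and -0.66 (SE 0.21, adjusted p = 0.0446), and the second call was kept only without WT-Suc replicate 1 (-0.66 to -0.61 and adjusted p 0.094 to 0.128 without the other libraries). *CIPK12* was at 27.3, 26.9 and 34.4 FPKM in WT and 40.5, 39.8 and 36.8 in WT-Suc. It was 39.7, 50.5 and 41.1 in *tmt2-S*, against 14.7, 21.1 and 15.4 in *tmt2-L-Suc*. The values of *tmt2-L-Suc* lay below all others. The log2FC of *CIPK12* was 0.53 (adjusted p = 0.0272), lost without WT replicate 1 or 2 or *tmt2-S* replicate 2 (0.43 to 0.51), and -1.21 (SE 0.18, adjusted p = 0.00131).

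*CIPK1*, a partner of *CBL1* and *CBL9* in osmotic stress, had the highest mean FPKM of the family. It was at 54.9, 80.1 and 109 FPKM in WT and 81.4, 89.0 and 108 in WT-Suc. Of the mutant groups, *tmt2-S* had 127, 135 and 128 and *tmt2-L-Suc* had 55.55, 57.6 and 46.3. The log2FC was 0.66 (adjusted p = 0.0228) in *tmt2-S*/WT, lost without WT replicate 1 or 2 or *tmt2-S* replicate 2 (0.46 to 0.66), and -0.83 (adjusted p = 0.0162) in *tmt2-L-Suc*/WT-Suc, lost without WT-Suc replicate 2 or 3 or *tmt2-L-Suc* replicate 3 (-0.85 to -0.69). Within the CIPK family, the largest difference between *tmt2-S* and *tmt2-L-Suc* after that of *CIPK16* was that of *CIPK3*, with a log2FC of 1.78. *CIPK21* followed with 1.73, *CIPK15* with 1.43, *CIPK12* with 1.41 and *CIPK1* with 1.36.

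*CIPK21*, a tonoplast kinase of the salt response, was not called in *tmt2-S*/WT (log2FC 0.01, adjusted p = 0.974) and had the largest fall in *tmt2-L-Suc*/WT-Suc. Its FPKM was 13.1, 10.2 and 14.55 in WT and 19.35, 19.7 and 11.1 in WT-Suc. In *tmt2-S* it was 12.6, 13.2 and 13.3, and *tmt2-L-Suc* had 3.57, 5.14 and 3.59. The log2FC in *tmt2-L-Suc*/WT-Suc was -2.02 (SE 0.25, adjusted p = 0.000539). *CIPK23*, the kinase that activates the potassium channel *AKT1* and phosphorylates the nitrate transporter *NRT1.1*, had -0.70 (adjusted p = 0.0337) and was kept only without WT-Suc replicate 1 (-0.78 to -0.59 without the others). *CIPK4* had -1.55 (adjusted p = 0.0305), which was kept only without WT-Suc replicate 2 (-1.87 to -1.22 without the others). *CIPK15*, whose rice relative links sugar starvation to the kinase SnRK1A, was at 75.6, 77.4 and 82.5 FPKM in *tmt2-S* and at 24.3, 43.7 and 23.2 in *tmt2-L-Suc*, with a log2FC of 0.43 (adjusted p = 0.201) in *tmt2-S*/WT.

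*CIPK9*, a tonoplast kinase of potassium and magnesium supply, was higher in the mutant on both media. It was at 55.3, 57.15 and 37.4 FPKM in WT and 32.1, 23.03 and 14.2 in WT-Suc. The *tmt2-S* libraries had 107, 133 and 81.7, and those of *tmt2-L-Suc* had 53.5, 50.7 and 52.7. The wild type with sucrose was lowest, and WT and *tmt2-L-Suc* overlapped. The log2FC was 1.05 (SE 0.26, adjusted p = 0.00604) in *tmt2-S*/WT, 1.16 (SE 0.26, adjusted p = 0.0101) in *tmt2-L-Suc*/WT-Suc and -1.21 (SE 0.26, adjusted p = 0.0462) in WT-Suc/WT. The last call was lost without WT replicate 1 or 2 or WT-Suc replicate 2 or 3 (-1.24 to -0.97, adjusted p 0.145 to 0.201). *CIPK2* rose by 1.02 (adjusted p = 0.00065) in *tmt2-S*/WT and by 0.55 (adjusted p = 0.0486) in *tmt2-L-Suc*/WT-Suc, and the second was kept only without *tmt2-L-Suc* replicate 2 (0.42 to 0.69 without the others).

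*CIPK26* rose by 1.00 (SE 0.20, adjusted p = 0.00138) and *CIPK8*, known from the nitrate response, by 0.55 (adjusted p = 0.00914) in *tmt2-S*/WT. Of the kinases that pair with *CBL2* and *CBL3* at the tonoplast in magnesium tolerance, *CIPK3*, *CIPK9* and *CIPK26* were higher in *tmt2-S*/WT, *CIPK23* was at 0.50 (adjusted p = 0.0724), and *CBL2* was lower. *CIPK20*, *CIPK17* and *CIPK25* were lower in *tmt2-S*/WT. *CIPK20* fell by 1.46 (SE 0.29, adjusted p = 0.00139) there and by 1.24 (SE 0.29, adjusted p = 0.011) in *tmt2-L-Suc*/WT-Suc, where the call was lost without *tmt2-L-Suc* replicate 3 (-1.01, adjusted p = 0.0505). *CIPK17* fell by 1.53 (adjusted p = 0.00556). *CIPK25* had 9 counts in the 3 *tmt2-S* libraries and 46 in those of WT, 5.14 times as many after scaling to the totals (exact 95% interval 2.49 to 11.95). *CIPK5* and *CIPK7* were called in none of the comparisons, and *CIPK7* was at 58.7 to 106 FPKM throughout.

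**Figure D5:**
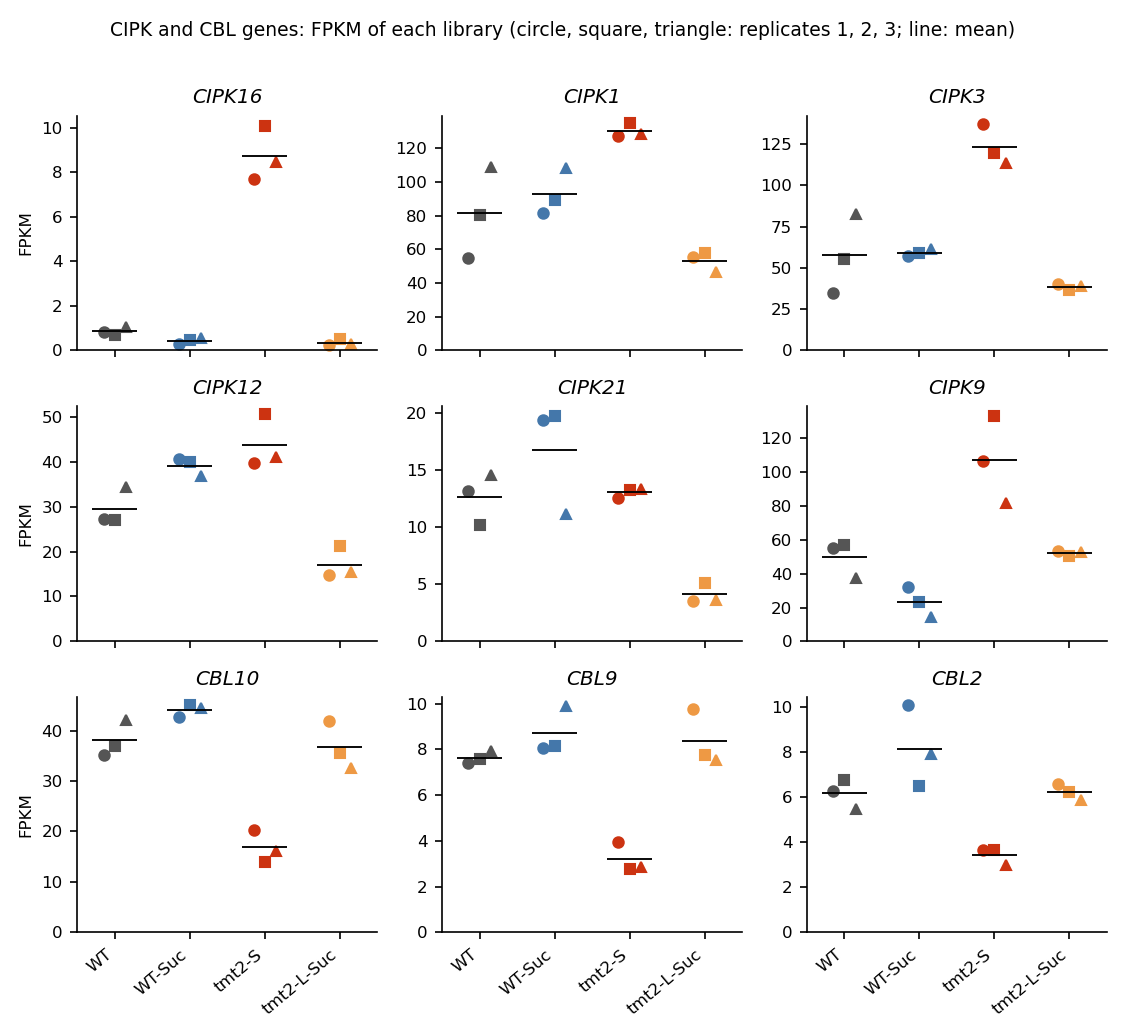
FPKM (vertical axis, from 0) of 6 CIPK and 3 CBL genes in each of the 12 libraries, by group, with a line at the group mean. *CIPK16* is above 7 FPKM in *tmt2-S* alone. *CIPK1*, *CIPK3* and *CIPK12* are highest in *tmt2-S* and lowest or among the lowest in *tmt2-L-Suc*, and the 3 CBL genes are lowest in *tmt2-S*.

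The interaction of genotype and sucrose was called for 22 members, 7 above 0 and 15 below, where 18.1% and 16.6% of all genes were above and below (DEG 12% and 8.19%). Without *CML41*, 14 were below. A value below 0 means that sucrose lowered the gene more, or raised it less, in *tmt2* than in the wild type, and it also contains the age of *tmt2-S*. The 7 CIPK genes called were all below 0, led by *CIPK16* (-3.65, SE 0.44, adjusted p = 0.000156), *CIPK21* (-2.03), *CIPK3* (-1.76), *CIPK12* (-1.74) and *CIPK1* (-1.49). The 3 CBL genes called were all above 0. Of the CPK genes, *CPK29* (2.06, SE 0.49, adjusted p = 0.00673) and *CDPK9* were above 0 and 6 were below, led by *CDPK2* (-1.41, SE 0.31, adjusted p = 0.00466). Of the 22 calls, 14 held without each library and under every setting but the DEG criteria. The call of *CML41* was lost without WT-Suc replicate 1 or 3 (-7.03 and -6.24), and those of *CBL1*, *CDPK9*, *CIPK26*, *CML37*, *CPK5*, *CPK7* and *TCH3* were each lost without 6 to 10 of the 12 libraries.

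Other genes of calcium signalling were described from lists of families. Of all genes tested, 20.7% were higher and 22.6% lower in *tmt2-S*/WT, and 10% and 10.4% in *tmt2-L-Suc*/WT-Suc. In *tmt2-S*/*tmt2-L-Suc* these shares were 25.7% and 25.8%. The counts of each list below are to be read beside them. The calmodulins, the conserved sensors from which the CML genes take their name, had a direction of their own. Of 8 tested, 5 were lower and 1 higher (*CAM9*) in *tmt2-S*/WT, with a median log2FC of -0.62, and in *tmt2-S*/*tmt2-L-Suc* 6 were lower and 1 higher. In *tmt2-L-Suc*/WT-Suc 3 were higher, led by *CAM2* (1.13), with a median of 0.38. Near-identical calmodulin genes may share reads, so their single values are uncertain.

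Of 22 tested entry channels (cyclic nucleotide-gated channels, glutamate receptor-like channels and TPC1), 10 were higher and 2 lower in *tmt2-S*/WT, with *CNGC11* at 3.28 and *CNGC3* at 2.96. In *tmt2-L-Suc*/WT-Suc 4 were higher, with *CNGC19* at 3.14. These named channels were low, so the sizes of their log2FC are uncertain. *CNGC11* was at 0.14 to 0.21 FPKM in WT and 0.89 to 2.48 in *tmt2-S*, and *CNGC3* at 0.06 to 0.26 and 0.69 to 2.32. *CNGC19* was at 0.06 to 0.12 FPKM in WT-Suc and 0.38 to 1.31 in *tmt2-L-Suc*. Of 17 calcium pumps and exchangers, which clear calcium from the cytosol, 7 were higher and 1 lower in each of *tmt2-S*/WT and *tmt2-L-Suc*/WT-Suc. The vacuolar exchanger *CAX3* was at 3.12 in *tmt2-S*/WT and 2.25 in *tmt2-L-Suc*/WT-Suc, and the pump *ACA1* at 1.51 and 2.42, with -1.45 in WT-Suc/WT. Of 6 CAMTA factors, 3 were higher in *tmt2-S*/WT and 1 was lower in *tmt2-L-Suc*/WT-Suc. *SOS3*, the CBL sensor of salt stress that the naming rule left out, was at 1.96 in *tmt2-S*/WT and 2.51 in *tmt2-S*/*tmt2-L-Suc*.

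Of 7 targets of these kinases, 3 were higher and 1 lower in *tmt2-S*/WT. *RBOHD*, the NADPH oxidase phosphorylated by *CPK5*, was at 1.32 in *tmt2-S*/WT, -1.55 in WT-Suc/WT and 2.75 in *tmt2-L-Suc*/WT-Suc. The ammonium transporter *AMT1;1*, which *CIPK23* inhibits, was at 1.62 in *tmt2-S*/WT, and the nitrate transporter *NRT1.1* was at -0.70. The guard cell potassium channel *KAT1*, a marker of that cell type, was at -3.39 in *tmt2-S*/WT, and the other 2 guard cell markers were not called (FPKM summed over the 3 genes 20.8 to 34.0 in *tmt2-S* and 35.6 to 64.9 in the other groups). The part of cell composition in the kinase results was not tested.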

How the data were processed

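Per the labels and the study's methods, poly(A) RNA of 12 shoot libraries was sequenced on an MGISeq platform. The authors removed poor reads, aligned the rest to TAIR10.1 with Bowtie2 and quantified genes with RSEM. The deposited expected counts are estimated counts without normalization (1.36 to 2.14% are not whole), and the deposited FPKM values were scaled by the authors to transcript length and mapped fragments. Columns of TPM (12) and of averages (12) were not used.

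Expected counts were rounded and fitted with edgeR 4.0.16 in R 4.3.3: filterByExpr (18506 genes), TMM, 1 mean per group over all 12 libraries, quasi-likelihood F-tests (two-sided) and Benjamini-Hochberg adjustment across all genes tested. The BCV was 0.209. The SE of a log2FC is its size over the square root of F. The code was tested on simulated data. No 2 replicates matched within sampling noise (chi-square per degree of freedom 11.8 to 86.7). An exact permutation test of 3 against 3 cannot go below p = 0.1. Exact 95% intervals are Clopper-Pearson and cover counting error only. Symbols, loci and sequences are those of RefSeq (TAIR10.1).

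Members, lists and tests were chosen with earlier results of these data known. Named were, per family and comparison, the 4 changed members with the largest log2FC in each direction, the 2 with the highest mean FPKM per family, and *TCH2*, *TCH3* and *CBL2*. The other changed or unchanged members and the motifs were named after their values were seen. Alternatives were median-of-ratios scaling, DESeq2 1.42.0, no filter, the replicate number as a block, limma 3.58.1 on log2(FPKM + 0.1) and log2(FPKM + 1), only the 2 groups compared, the DEG criteria, and leaving out each library.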

Additional observations from a re-analysis of the deposited data

Results flagged for a closer look

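The effect of sucrose differed between *tmt2* and the wild type for 22 members (edgeR interaction term, adjusted p of at most 0.05), and the age of *tmt2-S* is part of each value. In the CIPK family, the interaction (log2) was -3.65 for *CIPK16*, -2.03 for *CIPK21*, -1.76 for *CIPK3*, -1.74 for *CIPK12*, -1.49 for *CIPK1*, -1.2 for *CIPK23* and -0.90 for *CIPK26*. In the CPK family, it was -1.41 for *CDPK2*, -1.13 for *CPK9*, -0.84 for *CDPK19*, -0.81 for *CPK13*, -0.68 for *CPK7* and -0.61 for *CPK5*, against 2.06 for *CPK29* and 0.69 for *CDPK9*. The CBL sensors had 1.2 for *CBL9*, 0.94 for *CBL10* and 1.38 for *CBL1*. The calmodulin-like genes had -0.98 for *TCH3*, against 1.34 for *TCH2* and 1.48 for *CML37*. *CML41* is listed with -7.05 as a description, since it passed the count filter through *tmt2-S* alone and had at most 4 counts in each library of the other groups.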

How the results depend on the processing

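No called member changed sign under an alternative. *TCH2* in *tmt2-S*/WT (-0.07 to 0.30), *CIPK7* in *tmt2-S*/WT (-0.21 to 0.20) and in *tmt2-S*/*tmt2-L-Suc* (-0.06 to 0.34), and *CBL3* in *tmt2-S*/*tmt2-L-Suc* (-0.20 to 0.09) did, and none of these was called. Of the values of called or named members, 1467 kept their side of the threshold and 215 no longer passed it. With the DEG criteria, the members higher and lower became 6 in *tmt2-S*/WT (higher), 11 and 3 in *tmt2-S*/*tmt2-L-Suc*, 11 and 4 in *tmt2-L-Suc*/WT-Suc, and 7 below 0 in the interaction. In WT-Suc/WT the members lower were 6 with DESeq2, 1 with only the 2 groups compared and 0 to 5 with a library left out. In *tmt2-L-Suc*/WT-Suc the members lower were 5 with limma on log2(FPKM + 1), and with a library left out 8 to 16 were higher and 3 to 8 lower. In the interaction 4 members were above 0 with limma on log2(FPKM + 0.1) and 4 to 11 with a library left out. Beside fewer samples, the cause of these shifts was not tested. Same-numbered libraries did not deviate together (correlations from -0.29 to 0.33), so the numbers do not pair them. With the replicate block, 25 members were higher and 9 lower in *tmt2-S*/WT, 24 and 7 in *tmt2-S*/*tmt2-L-Suc*, 0 and 3 in WT-Suc/WT, 15 and 7 in *tmt2-L-Suc*/WT-Suc, and 6 above and 14 below 0 in the interaction. Counts under about 10 limit the size of the rise of *CML41* and of the falls of *CIPK25* and *CBL6*.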
